A study of Mus musculus with 8 samples.

Results

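LGXSM-5 and LGXSM-35 are the recombinant inbred mouse lines that the labels call intermediate healers, and they were set beside LGXSM-6, labelled a healer, and LGXSM-33, labelled a non-healer. These 4 lines were chosen by name from the 8 strains of the series, and all 67 target mRNAs were kept. Each line is 1 sample in the series: a lysate of knee joint sections, formalin-fixed and embedded in paraffin, from mice given a full-thickness articular cartilage defect at 8 weeks of age. By the study's methods the knees were harvested many weeks after this surgery, so 8 weeks is not the age at harvest. All 4 lines descend from a cross of LG/J with SM/J, all carried the same injury, and no uninjured knee was analysed here. The mRNAs were measured in a bead assay that captures each mRNA with its own probes and amplifies a branched DNA label. A first panel held 33 target mRNAs and a second panel 34. In each panel LGXSM-5 and LGXSM-35 had 9 assay replicates and LGXSM-6 and LGXSM-33 had 12, so that 42 of 76 assay replicates in the first panel and 42 of 78 in the second came from these lines.

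Inbred lines of one cross carry different mixtures of the same parental alleles, so that lines can be compared for a trait and for expression on a shared background. Articular cartilage is built from type II collagen (*Col2a1*) and aggrecan (*Acan*), and a full-thickness defect opens the bone beneath it, from which marrow cells reach the wound. Growth factors such as *Igf1* and *Tgfb1* support matrix synthesis by chondrocytes, whereas matrix metalloproteinases and aggrecanases break the matrix down. The sections held cartilage, subchondral bone, growth plate, meniscus, synovium and joint capsule together, so a lower level may come from fewer cells of a type or from less mRNA per cell, and these cannot be told apart.

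Levels are given as normalized levels, the part of an mRNA's log signal that a regression on its panel's reference genes left over, changed to log2; a value of 0 is the level predicted from the reference genes over all strains. In the first panel the ninth assay replicate of LGXSM-35 departed from the residuals recomputed from the signals by up to 0.345 log10. Its recomputed residuals were used. In the second panel no assay replicate was matched exactly, with departures of at most 0.0344 log10, and the deposited residuals were kept. A difference passed the test when its limma P, adjusted over the 67 mRNAs, was under 0.05. Assay replicates came in runs: within signals 1 to 3, 4 to 6, 7 to 9 and 10 to 12 of a line the values were alike, with a median intraclass correlation over mRNAs of 0.631 to 0.835 in the first panel and 0.539 to 0.742 in the second. The files do not say whether a run is 1 mouse, but P values that treat the assay replicates as independent are too small, so counts of calls, and the calls of the mRNAs described, were also set against a fit with each run of 3 signals as a random block, which leaves 3 runs for each intermediate line and 4 for each of the other lines. With 2 lines against 2, an exact permutation test over lines cannot give a two-sided P below 0.333, and no test of healing class was run.

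**Figure D1:**
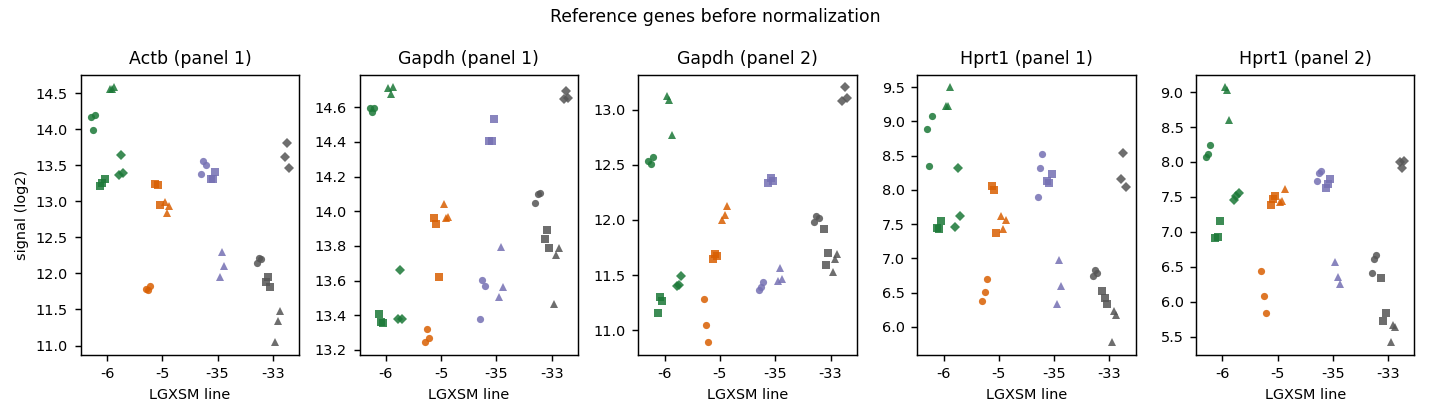
Signals (log2, vertical axis) of the reference genes of each panel before normalization, by line; each point is an assay replicate and each marker shape a run of 3 signals. *Actb* and *Hprt1* were low in the first 3 runs of LGXSM-33, whose signals 10 to 12 lay well above them, while *Gapdh* overlapped across the lines.

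The reference genes were not level across the lines. Median *Hprt1* signals in the first panel were 172.5 in LGXSM-5, 273 in LGXSM-35, 322.5 in LGXSM-6 and 99.5 in LGXSM-33. Median *Actb* signals were 7843, 10188, 14508.5 and 4230 in the same order. Median *Gapdh* signals were 15565, 12458, 18668 and 16067. The healer line thus had the highest and the non-healer line the lowest *Actb* and *Hprt1*, with the intermediate lines between them, and values under other uses of the reference genes are given for counts of calls, for the lower calls of most gene groups and for some single mRNAs.

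After regression on the reference genes, neither line labelled intermediate lay between the healer and the non-healer line for most mRNAs. The mean of LGXSM-5 was below both comparison lines for 43 of 67 mRNAs, between them for 10 and above both for 14. The mean of LGXSM-35 was below both for 51, between them for 7 and above both for 9. Both intermediate lines were below both comparison lines for 38 mRNAs and above both for 6 (*Cebpb*, *Ccl3*, *Vegfa*, *Becn1*, *Polq* and *Ulk1*), and both were between them for 2, *Nampt* and *Xrcc2*. These positions rested on the use of the reference genes. Scaled to their mean, LGXSM-5 was below both for 23, between for 23 and above both for 21, and LGXSM-35 for 25, 31 and 11. Without normalization the counts were 32, 27 and 8 for LGXSM-5 and 30, 32 and 5 for LGXSM-35. Both lines were between for 21, against 18 when scaled to the mean. With the reference genes as covariates in a fit of the signals, the counts were 43, 15 and 9 for LGXSM-5. They were 45, 18 and 4 for LGXSM-35 under that fit, with both lines between for 12. The median absolute difference over the mRNAs was 0.15 log2 between LGXSM-5 and LGXSM-35 and 0.12 between LGXSM-6 and LGXSM-33, against 0.21 to 0.26 for the 4 pairs that set an intermediate line against a comparison line. The small distance of LGXSM-6 from LGXSM-33 was that of the regression residuals. It was 0.25 with the reference genes as covariates, where the 4 pairs lay 0.27 to 0.32 apart. When scaled to the mean of the reference genes it was 0.43, and without normalization 0.69. Under either of these last settings the intermediate lines lay 0.26 and 0.33 from LGXSM-33. These positions and distances are descriptions of line means and carry no test.

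**Figure D2:**
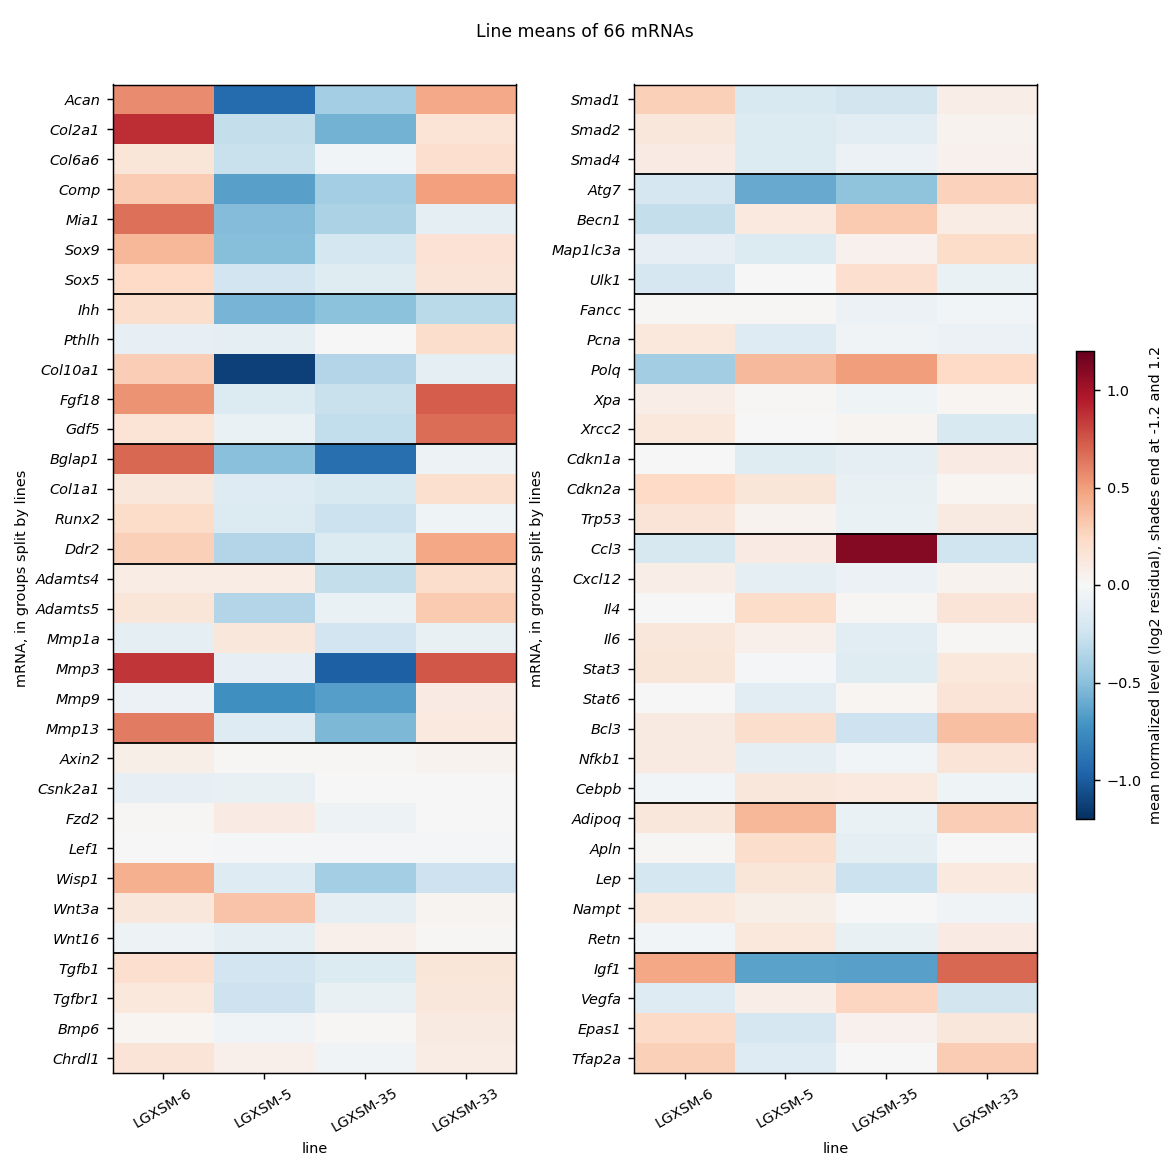
Mean normalized level (log2 residual, colour) of 66 mRNAs in LGXSM-6, LGXSM-5, LGXSM-35 and LGXSM-33, with lines dividing the functional groups. The cartilage, bone and *Igf1* rows are paler or bluer in the 2 middle columns than in the outer columns, while *Becn1*, *Polq* and *Vegfa* are redder there than in at least LGXSM-6.

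Against LGXSM-6, LGXSM-5 was lower for 28 mRNAs (41.8% of the 67) and higher for 3 (4.48%). Against LGXSM-33, LGXSM-5 was lower for 26 (38.8%) and higher for 1 (1.49%), *Vegfa*. LGXSM-35 was lower than LGXSM-6 for 28 (41.8%) and higher for 6 (8.96%), and lower than LGXSM-33 for 22 (32.8%) and higher for 4 (5.97%). The calls ran mostly downward in all 4 comparisons, and the median difference over all 67 mRNAs was -0.15, -0.15, -0.21 and -0.18 log2 in the same order. With runs as a random block, 20 lower and 2 higher calls were left against LGXSM-6 and 7 lower and 0 higher against LGXSM-33 for LGXSM-5, and 11 lower and 4 higher, then 7 lower and 2 higher, for LGXSM-35. With run means as the unit 11, 5, 11 and 3 mRNAs passed in the same order, so that a call kept with the block was not always kept there. Beside those given with their mRNA, the calls so lost were *Acan* in LGXSM-5 against LGXSM-33, *Bglap1* and *Bcl3* in LGXSM-35 against LGXSM-33, *Atg7*, *Ddr2*, *Col10a1*, *Adamts5*, *Smad2* and *Smad4* in LGXSM-5 against LGXSM-6, *Tgfbr1* in LGXSM-5 against both, and *Runx2* in both lines against LGXSM-6 (adjusted P from 0.0536 to 0.163). Scaling to the mean of the reference genes gave 13 lower and 8 higher, 14 lower and 5 higher, 17 lower and 7 higher, and 19 lower and 7 higher. Without normalization the comparisons with LGXSM-6 gave 42 lower and 0 higher for LGXSM-5 and 36 lower and 1 higher for LGXSM-35, whereas those with LGXSM-33 gave 8 lower and 2 higher, and 5 lower and 3 higher. Without normalization the median over all mRNAs moved to -0.71 and -0.52 against LGXSM-6 and to 0.01 and 0.06 against LGXSM-33.

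Single runs weighed on 3 of these counts. The 26 lower calls of LGXSM-5 against LGXSM-33 fell to 17 without signals 7 to 9 of LGXSM-5, and likewise to 17 without signals 7 to 9 of LGXSM-33. Leaving out signals 7 to 9 of LGXSM-35 gave 18 lower calls in place of 28 against LGXSM-6 and 13 in place of 22 against LGXSM-33. Without those signals, or without signals 1 to 3 of LGXSM-33, 17 mRNAs in place of 26 passed in either direction between LGXSM-35 and LGXSM-33. The 3 higher calls of LGXSM-5 against LGXSM-6 became 6 without signals 7 to 9 of LGXSM-5. The 1 against LGXSM-33 became 3 without signals 7 to 9 of LGXSM-33 and 0 without its signals 4 to 6. For LGXSM-35 against LGXSM-33, 4 higher calls became 2 without signals 1 to 3 of LGXSM-33.

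What the intermediate lines shared was counted as the mRNAs that were lower, or higher, in both of them than in both comparison lines with all 4 comparisons passed. There were 11 such mRNAs on the lower side (16.4% of the 67), namely *Igf1*, *Acan*, *Comp*, *Fgf18*, *Mmp9*, *Ddr2*, *Bglap1*, *Tgfb1*, *Atg7*, *Smad1* and *Tgfbr1*, and 1 on the higher side (1.49%), *Vegfa*. The 4 comparisons reuse the same lines, so these counts are not 4 separate pieces of evidence. When runs entered as a random block, and also with run means as the unit, 2 were left, *Igf1* and *Mmp9*. Scaled to the mean of the reference genes the shared mRNAs were *Igf1* and *Acan* on the lower side and *Becn1* and *Polq* on the higher side, and without normalization they were *Igf1*, *Comp* and *Fgf18*, all lower. *Igf1* was in every one of these sets and kept its call in all 26 alternative settings.

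**Figure D3:**
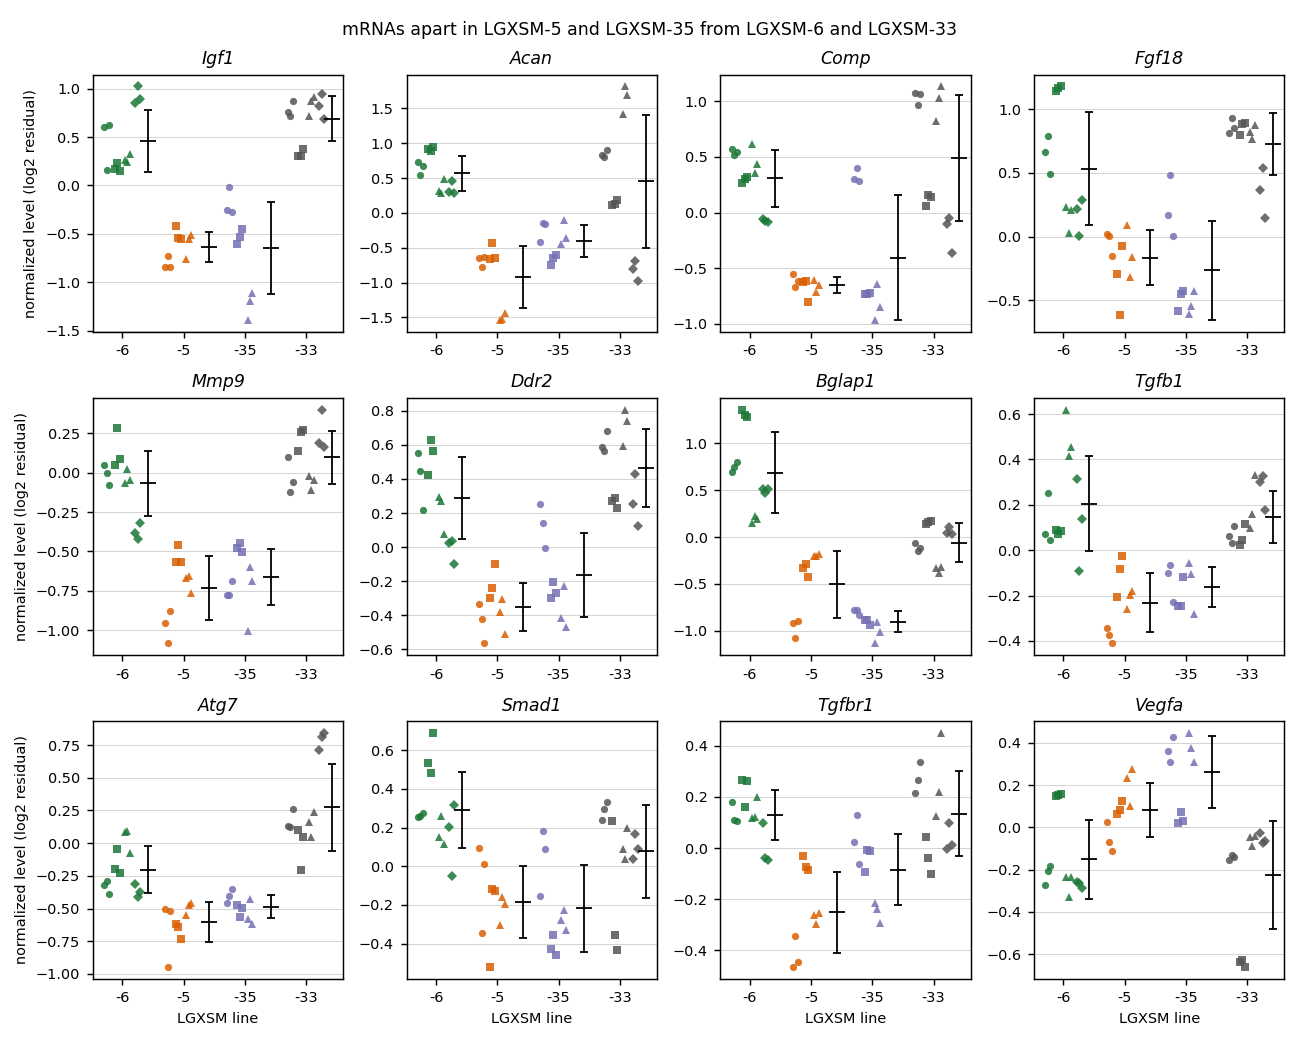
Normalized level (log2 residual, vertical axis) of the 12 shared mRNAs in LGXSM-6, LGXSM-5, LGXSM-35 and LGXSM-33; each point is an assay replicate, each marker shape a run of 3 signals, and the black bar the mean with its SD over 9 or 12 assay replicates. The points of *Igf1* and *Mmp9* in the intermediate lines lie wholly below those of the comparison lines, and the points of the other 10 mRNAs overlap.

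*Igf1*, which encodes insulin-like growth factor 1, an anabolic factor for cartilage and bone, was on average 2.33-fold lower in the intermediate lines. Its signals ran from 50.5 through a median of 82 to 102.5 in LGXSM-5 and from 39 through 99 to 128 in LGXSM-35. They ran from 121.5 through 228 to 297 in LGXSM-6 and from 142.5 through 212 to 373 in LGXSM-33. Signals of the intermediate lines were thus low before any normalization, with a small overlap of LGXSM-35 and LGXSM-6.

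After normalization no assay replicate of *Igf1* overlapped between the pairs of lines. The highest normalized level in LGXSM-5 and LGXSM-35 was -0.02 and the lowest in LGXSM-6 and LGXSM-33 was 0.15. Run means were -0.80, -0.50 and -0.61 in LGXSM-5 and -0.18, -0.53 and -1.23 in LGXSM-35, and 0.47, 0.18, 0.28 and 0.92 in LGXSM-6 and 0.78, 0.33, 0.84 and 0.82 in LGXSM-33. Only 2 mRNAs (2.99% of the 67), *Igf1* and *Mmp9*, had all assay replicates of the intermediate lines on one side of all others, and 4 (5.97%), with *Tgfb1* and *Atg7*, had all run means apart.

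The difference of *Igf1* from LGXSM-6 was -1.10 ± 0.17 (log2, SE) in LGXSM-5 (adjusted P = 1.72e-07) and -1.11 ± 0.17 in LGXSM-35 (adjusted P = 6.13e-08). The difference from LGXSM-33 was -1.33 ± 0.17 in LGXSM-5 (adjusted P = 5.74e-10) and -1.34 ± 0.17 in LGXSM-35 (adjusted P = 6.59e-10). Under the random block of runs the adjusted P values were 0.00161, 0.00103, 0.000121 and 8.0e-05 in that order. Scaled to the mean of the reference genes the differences from LGXSM-6 were smaller, at -0.59 and -0.76, and those from LGXSM-33 larger, at -1.63 and -1.80. Over the 8 strains the 2 intermediate lines had the lowest mean levels, -0.65 ± 0.48 (SD, n = 9 assay replicates) in LGXSM-35 and -0.64 ± 0.16 (n = 9) in LGXSM-5. The parents followed with -0.37 ± 0.37 in LG/J and -0.04 ± 0.43 in SM/J.

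Since *Igf1* was the shared mRNA that held in every setting, the reference sequence at its start is shown. The window covers 250 bases before to 50 bases after the start of the gene at chr10:87860861-87861160 on the plus strand (RefSeq, GRCm38.p6), 5′ to 3′, and the capitals mark a match to the Sox site ACAAAG on the opposite strand followed by one to the AP-1 site TGANTCA.
Igf1: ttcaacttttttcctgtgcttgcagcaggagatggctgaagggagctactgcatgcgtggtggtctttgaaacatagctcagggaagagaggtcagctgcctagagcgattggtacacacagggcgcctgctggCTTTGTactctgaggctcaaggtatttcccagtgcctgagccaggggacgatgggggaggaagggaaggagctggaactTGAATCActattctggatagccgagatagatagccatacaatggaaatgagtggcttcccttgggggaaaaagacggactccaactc
Both strands were searched for these motifs, for the TATA box as TATAAA, and for the GC box as GGGCGG, and no matches overlapped in this window. Of the 27025 promoters of this length, 1 for each gene, 7.93% held the AP-1 letters, 18.7% the Sox letters, 14.2% those of the TATA box and 35.9% those of the GC box. Of the target mRNAs 46 matched a promoter by symbol, and 5 of these held the AP-1 letters and 9 the Sox letters. The TATA box was held by 8 of the 46 and the GC box by 26. Of the 11 shared lower mRNAs 8 matched a promoter. *Igf1* alone held the AP-1 letters, *Igf1* and *Tgfbr1* held the Sox letters, and *Ddr2* alone held the TATA box. The GC box was held by 5 of the 8 (*Acan*, *Fgf18*, *Smad1*, *Tgfb1* and *Tgfbr1*), beside the 26 of 46 among the target mRNAs. A match is a description of the letters and not of a bound site.

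*Mmp9*, which encodes the gelatinase of osteoclasts and neutrophils, was on average 1.64-fold lower in the intermediate lines after normalization. Its mean normalized level was -0.73 ± 0.20 (SD, n = 9) in LGXSM-5 and -0.66 ± 0.18 (n = 9) in LGXSM-35, against -0.07 ± 0.21 (n = 12) in LGXSM-6 and 0.10 ± 0.17 (n = 12) in LGXSM-33. The highest value of the intermediate lines, -0.45, lay just under the lowest of the comparison lines, -0.42. All 4 comparisons passed, with adjusted P values from 5.74e-10 to 2.61e-06, and from 2.2e-05 to 0.00181 with runs as a random block. Before normalization the order was another one. The median *Mmp9* signal was 257 in LGXSM-5 and 335 in LGXSM-35, which is below the 526 of LGXSM-6 but above the 176 of LGXSM-33. Scaled to the mean of the reference genes, the difference from LGXSM-33 was 0.02 in LGXSM-5 and 0.17 in LGXSM-35 (adjusted P = 0.912 and 0.33), and without normalization it was 0.01 and 0.37. The lower *Mmp9* held against LGXSM-6 under every scaling, and against LGXSM-33 only where the reference genes entered by regression. The other leukocyte markers had no lower call: *Il4* passed in none of the 4 comparisons, and *Ccl3* was higher in LGXSM-35. The lowest median signal among these 3 markers was 15 in LGXSM-5, 14 in LGXSM-35, 14 in LGXSM-6 and 11 in LGXSM-33. These medians lay under the signal filter of 20, and a lack of calls at such levels says little. No assay replicate had any of these 3 markers at 0. Whether background had been taken off these signals is not given, so this does not show detection.

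The run means of *Tgfb1* and *Atg7* were also apart. *Tgfb1*, which encodes a growth factor that drives chondrocyte matrix synthesis, had run means of -0.38, -0.11 and -0.21 in LGXSM-5 and of -0.13, -0.20 and -0.15 in LGXSM-35. In LGXSM-6 they were 0.12, 0.08, 0.50 and 0.12, and in LGXSM-33 0.07, 0.06, 0.20 and 0.27. The 4 differences lay between -0.44 and -0.31 (SE 0.08), and with runs as a random block only that of LGXSM-5 from LGXSM-6 passed (adjusted P = 0.0337). *Atg7*, which encodes an enzyme needed to form autophagosomes, had its largest differences from LGXSM-33, at -0.88 ± 0.09 in LGXSM-5 (adjusted P = 3.6e-13) and -0.76 ± 0.09 in LGXSM-35 (adjusted P = 1.09e-10), and both passed with runs as a random block. Its differences from LGXSM-6 were -0.40 ± 0.09 in LGXSM-5 and -0.28 ± 0.09 in LGXSM-35. The second of these was lost with runs as a random block (adjusted P = 0.191) and without signals 7 to 9 of LGXSM-6. Under scaling to the mean of the reference genes neither *Tgfb1* against LGXSM-33 nor *Atg7* against LGXSM-6 passed.

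The cartilage group held *Acan*, *Col2a1*, *Col6a6*, *Comp* and *Mia1* and the chondrocyte transcription factors *Sox5* and *Sox9*. Of these 7, 6 were lower in LGXSM-5 than in LGXSM-6, 6 in LGXSM-5 than in LGXSM-33, 6 in LGXSM-35 than in LGXSM-6 and 3 in LGXSM-35 than in LGXSM-33, and none was higher. *Sox5* and *Sox9* were among the calls of the first 3 comparisons and not of the last. Over all 67 mRNAs the shares of lower calls were 41.8%, 38.8%, 41.8% and 32.8% in that order. Their median differences were -0.96, -0.47, -0.71 and -0.39 log2 in that order, against -0.15, -0.15, -0.21 and -0.18 over all mRNAs, and they were below 0 under every scaling. With runs as a random block 3, 1, 2 and 0 of the 7 passed, scaled to the mean of the reference genes 3 in each comparison, and without normalization 7, 2, 6 and 1.

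*Acan*, the aggrecan core protein, had signals from 96 through a median of 120 to 283.5 in LGXSM-5 and from 145 through 265 to 402 in LGXSM-35. In LGXSM-6 they ran from 545 through 894.75 to 1163 and in LGXSM-33 from 200 through 328 to 476. Only LGXSM-6 stood clear of the intermediate lines before normalization. The differences of LGXSM-5 from LGXSM-6 and LGXSM-33 were -1.49 ± 0.27 and -1.37 ± 0.27, and both passed with runs as a random block (adjusted P = 0.00899 and 0.0296). Those of LGXSM-35 were -0.97 ± 0.27 and -0.86 ± 0.27, and neither passed with the block (adjusted P = 0.102 and 0.235). LGXSM-33 was split, with run means of 0.85, 0.14, 1.65 and -0.82, and *Acan* no longer counted as shared without signals 1 to 3 or 7 to 9 of that line, or without signals 4 to 6 of LGXSM-35.

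*Comp*, the cartilage oligomeric matrix protein, was even across LGXSM-5, with run means of -0.62, -0.68 and -0.66. In LGXSM-35 it was split into 1 run at 0.33 and others at -0.73 and -0.82, and in LGXSM-6 its run means were 0.54, 0.30, 0.47 and -0.07, so that the first run of LGXSM-35 lay within the range of LGXSM-6. *Comp* no longer counted as shared without signals 4 to 6 or 7 to 9 of LGXSM-35. When runs entered as a random block none of the 4 differences passed (adjusted P from 0.105 to 0.307).

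*Col2a1*, the main collagen of cartilage, passed against LGXSM-6 in both lines, with differences of -1.18 ± 0.26 and -1.45 ± 0.26, whereas against LGXSM-33 it was -0.45 ± 0.26 in LGXSM-5 (adjusted P = 0.152) and -0.73 ± 0.26 in LGXSM-35 (adjusted P = 0.0168). *Mia1*, a secreted protein of chondrocytes, differed from LGXSM-6 by -1.18 in LGXSM-5 and -1.04 in LGXSM-35 and from LGXSM-33 by -0.42 and -0.27, of which the last did not pass (adjusted P = 0.112). With runs as a random block the calls against LGXSM-6 were kept for both mRNAs, and those against LGXSM-33, *Col2a1* in LGXSM-35 and *Mia1* in LGXSM-5, were lost (adjusted P = 0.275 and 0.242). With run means as the unit *Col2a1* in LGXSM-5 against LGXSM-6 was lost too (adjusted P = 0.0786). LGXSM-6 itself was higher than LGXSM-33 for both, by 0.72 for *Col2a1* and 0.77 for *Mia1*, of which only *Mia1* passed with the block (adjusted P = 0.0118, against 0.414 for *Col2a1*).

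Of the 5 growth plate and hypertrophic cartilage mRNAs, 3 were lower in LGXSM-5 than in LGXSM-6 and 3 than in LGXSM-33, and 2 were lower in LGXSM-35 in each comparison, beside 41.8%, 38.8%, 41.8% and 32.8% of all 67 mRNAs. With runs as a random block 2, 0, 1 and 0 of the 5 passed, scaled to the mean of the reference genes 2, 3, 1 and 2, and without normalization 3, 3, 3 and 2. The group medians were -0.70, -0.75, -0.66 and -0.24, and that of LGXSM-5 against LGXSM-6 turned to 0.13 under scaling to the mean of the reference genes. *Fgf18*, a growth factor that stimulates chondrocytes, was shared, with differences from -0.99 to -0.70 (SE 0.20), but with median signals of only 24 and 27 in the intermediate lines and 41.5 and 55 in the others, and none of its differences passed with runs as a random block (adjusted P from 0.0514 to 0.14). *Col10a1*, the collagen of hypertrophic chondrocytes, was lower in LGXSM-5, with differences of -1.42 and -1.01, of which the second was lost with the block (adjusted P = 0.241), and differed in LGXSM-35 by -0.66 and -0.24, neither passed. *Ihh*, the hedgehog ligand of prehypertrophic chondrocytes, was lower against LGXSM-6 in both lines, with differences of -0.78 and -0.70, and did not pass against LGXSM-33 (-0.24 and -0.17). *Gdf5*, a joint-forming growth factor, was the reverse and passed against LGXSM-33 alone, with differences of -0.75 and -0.96, at median signals of 8 to 14 in the 4 lines. Neither difference passed with the block (adjusted P = 0.181 and 0.0594), and the run means of LGXSM-33 were 0.22, 0.03, 2.13 and 0.28, so that 1 run stood far above the rest.

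Of the 4 bone mRNAs measured, 3 were lower in LGXSM-5 than in each comparison line, and in LGXSM-35 4 were lower than in LGXSM-6 and 3 than in LGXSM-33, beside 41.8%, 38.8%, 41.8% and 32.8% of all 67 mRNAs. The group medians, from -0.51 to -0.39, were below 0 under every scaling. The fit with runs as a random block left 3, 1, 2 and 1 of the 4, scaling to the mean of the reference genes 2, 2, 2 and 3, and no normalization 4, 1, 4 and 0. *Bglap1* (osteocalcin, a secreted product of osteoblasts, whose older name may cover more than 1 gene copy that the probes may not separate) had a median signal of 1731 in LGXSM-5 and 1431 in LGXSM-35. The median was 4707 in LGXSM-6 and 1531.25 in LGXSM-33, so only LGXSM-6 stood apart before normalization. After it, *Bglap1* was lower in LGXSM-5, with differences of -1.19 ± 0.15 and -0.44 ± 0.15, and in LGXSM-35, with differences of -1.59 ± 0.15 and -0.85 ± 0.15. The smallest of these, LGXSM-5 against LGXSM-33, was lost with runs as a random block (adjusted P = 0.0645), and *Bglap1* no longer counted as shared without signals 1 to 3 of LGXSM-5 or signals 4 to 6 of LGXSM-33. *Ddr2*, a collagen receptor, was shared with differences from -0.81 to -0.45 (SE 0.14), and with the block only those of LGXSM-5 passed (adjusted P = 0.0494 and 0.0296); without signals 7 to 9 of LGXSM-35 it no longer counted as shared. *Col1a1*, the collagen of bone and fibrous tissue, had differences from -0.37 to -0.29, of which none passed with the block. *Runx2*, the osteoblast transcription factor, passed against LGXSM-6 in both lines, with differences of -0.38 and -0.48, and not against LGXSM-33 (-0.11 and -0.20).

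Of the 6 matrix protease mRNAs, 5 had a mean difference below 0, *Mmp1a* being the exception. Of the 6, 4 and 2 were lower in LGXSM-5 against LGXSM-6 and LGXSM-33, and 4 and 5 in LGXSM-35, with medians of -0.58, -0.47, -0.49 and -0.58. The shares of lower calls over all 67 mRNAs were 41.8%, 38.8%, 41.8% and 32.8%. With the block 3, 2, 3 and 3 of the 6 passed, scaled to the mean of the reference genes 2, 1, 3 and 4, and without normalization 4, 0, 5 and 1. The group medians were -0.31, -0.19, -0.41 and -0.59 when scaled to that mean. Without normalization they were -1.19, -0.05, -0.91 and -0.15, so those against LGXSM-33 were small. *Mmp3*, stromelysin 1, showed how much 1 run could weigh. In LGXSM-5 its run means were 2.02, -1.18 and -1.13, in LGXSM-6 0.84, 0.17, -0.07 and 2.52, and in LGXSM-35 an even -0.67, -1.09 and -1.18. It was lower in LGXSM-35 than in LGXSM-6 and LGXSM-33, with differences of -1.84 ± 0.39 and -1.72 ± 0.39, and both passed with runs as a random block (adjusted P = 0.00534 and 0.0184) but not with run means as the unit (adjusted P = 0.0678 and 0.13). *Mmp13*, a collagenase of hypertrophic cartilage and bone, was lower in LGXSM-35, with differences of -1.16 ± 0.17 and -0.66 ± 0.17, and in LGXSM-5 than in LGXSM-6, with a difference of -0.78 ± 0.17, and all of these passed with the block. With run means as the unit only LGXSM-35 against LGXSM-6 passed (adjusted P = 0.0109), and the other 2 calls were lost (adjusted P = 0.0786 in LGXSM-5 against LGXSM-6 and 0.198 in LGXSM-35 against LGXSM-33). In LGXSM-5 against LGXSM-33 the difference of *Mmp13* was -0.27 (adjusted P = 0.191). *Adamts5*, an aggrecanase, passed in 3 of the 4 comparisons, with -0.23 in LGXSM-35 against LGXSM-6 (adjusted P = 0.0853) as the exception, and with the block the call in LGXSM-35 against LGXSM-33 was lost (adjusted P = 0.225).

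In the TGF-beta, BMP and Smad group, 5 of 7 mRNAs were lower in LGXSM-5 than in each comparison line, and 5 and 3 in LGXSM-35, with medians of -0.30, -0.21, -0.21 and -0.17; without normalization the last turned to 0.17. Over all 67 mRNAs 41.8%, 38.8%, 41.8% and 32.8% were lower. All 7 had a mean difference below 0, as had 53 of all 67 mRNAs. *Smad1*, which carries BMP signals to the nucleus, and *Tgfbr1*, the type I receptor for TGF-beta, were shared beside *Tgfb1*. *Smad1* differed by -0.48 and -0.26 in LGXSM-5 and by -0.51 and -0.30 in LGXSM-35 (SE 0.10), and with the block it passed against LGXSM-6 alone (adjusted P = 0.0479 and 0.039). *Tgfbr1* differed by -0.38 and -0.39 in LGXSM-5 and by -0.21 and -0.22 in LGXSM-35 (SE 0.08), and with the block it passed in LGXSM-5 alone (adjusted P = 0.0255 and 0.0343). *Smad1* no longer counted as shared when any of 7 of the 14 runs was left out (signals 4 to 6 or 7 to 9 of either intermediate line, or signals 1 to 3, 7 to 9 or 10 to 12 of LGXSM-33), and *Tgfbr1* when any of 4 was (signals 7 to 9 of LGXSM-35, 4 to 6 of LGXSM-6, or 1 to 3 or 7 to 9 of LGXSM-33). With the block 5, 1, 1 and 0 of the group passed, scaled to the mean of the reference genes 1, 1, 2 and 0, and without normalization 6, 0, 5 and 0.

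Few mRNAs were higher in the intermediate lines. *Vegfa*, the main factor for vessel growth, was higher in LGXSM-5 by 0.23 ± 0.09 (adjusted P = 0.0328) and 0.31 ± 0.09 (adjusted P = 0.00571), and in LGXSM-35 by 0.41 ± 0.09 (adjusted P = 0.000124) and 0.49 ± 0.09 (adjusted P = 1.75e-05). Under the random block of runs the differences of LGXSM-35 passed and those of LGXSM-5 did not (adjusted P = 0.112 and 0.0645), and with run means as the unit none of the 4 passed (adjusted P from 0.101 to 0.405). Without normalization *Vegfa* in LGXSM-5 differed from LGXSM-6 by -0.23, so its direction there rests on the normalization. The shared call was also lost when signals 4 to 6 or 7 to 9 of LGXSM-5, signals 1 to 3, 7 to 9 or 10 to 12 of LGXSM-6, or signals 4 to 6 of LGXSM-33 were left out.

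*Polq*, a DNA polymerase of end-joining repair, and *Becn1*, which starts autophagosome formation, were higher than in LGXSM-6 in both lines. *Polq* was higher by 0.81 ± 0.13 in LGXSM-5 and 0.93 ± 0.13 in LGXSM-35, and *Becn1* by 0.40 ± 0.09 and 0.61 ± 0.09, and all 4 passed with runs as a random block; with run means as the unit *Becn1* in LGXSM-5 was lost (adjusted P = 0.0794). Against LGXSM-33 *Polq* differed by 0.14 and 0.26, neither passed, and *Becn1* by 0.03 (adjusted P = 0.809) and 0.23 (adjusted P = 0.0329). LGXSM-6 was itself lower than LGXSM-33 for both, with differences of -0.66 for *Polq* and -0.37 for *Becn1*. The 4 autophagy mRNAs thus split, with *Atg7* lower, *Becn1* higher, *Ulk1* higher in LGXSM-35 by 0.40 and 0.28 and not passed in LGXSM-5, and *Map1lc3a* lower in LGXSM-5 than in LGXSM-33 alone (-0.38). Once runs entered as a random block, the calls of *Ulk1* (adjusted P = 0.0898 and 0.301), of *Map1lc3a* (adjusted P = 0.157) and of *Becn1* in LGXSM-35 against LGXSM-33 (adjusted P = 0.271) were lost. Without normalization *Becn1* in LGXSM-5 and *Ulk1* in LGXSM-35 differed from LGXSM-6 by -0.31 and -0.06.

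*Ccl3*, a chemokine of macrophages and neutrophils, was higher in LGXSM-35 by 1.29 ± 0.33 (adjusted P = 0.00074) and 1.34 ± 0.33 (adjusted P = 0.000758), and in LGXSM-5 differed by 0.30 and 0.34, neither passed. Its runs were far apart within lines, with means of 0.98, 1.99 and 0.32 in LGXSM-35, of -0.12, 1.39 and -0.97 in LGXSM-5 and of -1.24, -0.60, -0.61 and 1.66 in LGXSM-6. The LGXSM-35 differences passed with runs as a random block (adjusted P = 0.0222 and 0.0289) and were lost with run means as the unit (adjusted P = 0.141 and 0.177). Of the 9 cytokine and signalling mRNAs 1, 2, 2 and 3 were lower in the 4 comparisons, 0, 0, 0 and 1 with the block, 1, 0, 3 and 1 when scaled to the mean of the reference genes, and 6, 0, 6 and 0 without normalization, beside 41.8%, 38.8%, 41.8% and 32.8% of all 67 mRNAs. Among them, *Bcl3* was lower in LGXSM-35, with differences of -0.35 and -0.61, and so was *Stat3*, with differences of -0.29 and -0.27, and neither passed in LGXSM-5. *Nfkb1* passed in LGXSM-5 against both lines, with differences of -0.21 and -0.26, and in LGXSM-35 against LGXSM-33, with a difference of -0.18. With the block the call of *Bcl3* against LGXSM-33 was kept and that against LGXSM-6 lost (adjusted P = 0.249), and those of *Stat3* (adjusted P = 0.102 and 0.225) and *Nfkb1* (adjusted P = 0.231, 0.181 and 0.363) were lost.

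Of the 5 adipokines none passed in any of the 4 comparisons, beside 41.8%, 38.8%, 41.8% and 32.8% of all mRNAs that were lower. With the reference genes as covariates 0, 1, 1 and 2 adipokines were lower, and their median for LGXSM-5 against LGXSM-6 moved from 0.20 to 0.74 when scaled to the mean of the reference genes. Of the 7 Wnt pathway mRNAs the only calls were those of *Wisp1* against LGXSM-6, with a difference of -0.59 in LGXSM-5 and -0.84 in LGXSM-35. *Axin2*, a feedback target of Wnt signalling, differed by -0.06 to -0.02. The 5 mRNAs of DNA repair and replication had a median difference of 0.03 in LGXSM-35 against LGXSM-33, which was 0.62 when scaled to the mean of the reference genes and 0.82 without normalization. Among them, beside *Polq*, *Pcna*, the sliding clamp of DNA polymerases, was lower in LGXSM-5 than in LGXSM-6, with a difference of -0.28 (adjusted P = 0.0472), and *Xrcc2* passed in none. Without normalization 4, 0, 1 and 0 of the 5 were lower in the 4 comparisons. Of the 3 cell cycle inhibitors, *Trp53* was lower in LGXSM-35, with differences of -0.24 and -0.19, and *Cdkn1a* passed in none. With the reference genes as covariates 0, 2, 2 and 2 of these 3 were lower, and without normalization 1, 0, 2 and 0. The 4 mRNAs grouped as growth and vascular factors were *Igf1*, *Vegfa* and those of the transcription factors *Epas1* and *Tfap2a*. All 4 passed in LGXSM-5 against each comparison line, 3 lower and 1 higher, and in LGXSM-35 2 and 1 were lower and *Vegfa* higher. The fit with the block left 2, 1, 1 and 1 lower, scaling to the mean of the reference genes 1, 2, 1 and 3, and no normalization 3, 1, 2 and 1. Beside *Igf1* and *Vegfa*, *Epas1* and *Tfap2a* were lower in LGXSM-5, with differences of -0.43 and -0.33 for *Epas1* and of -0.44 and -0.45 for *Tfap2a*; in LGXSM-35 *Epas1* was lower than in LGXSM-6 alone (-0.19). Of the calls in these groups other than *Igf1*, *Vegfa* and *Polq*, those of *Wisp1* and of *Epas1* in LGXSM-5 against LGXSM-6 were kept with the block. Lost were *Pcna* (adjusted P = 0.28), *Trp53* (adjusted P = 0.209 and 0.369), *Tfap2a* (adjusted P = 0.273 and 0.299), and *Epas1* in LGXSM-5 against LGXSM-33 and in LGXSM-35 against LGXSM-6 (adjusted P = 0.178 and 0.419).

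The tissue markers are mostly mRNAs already described, so their levels are a description and no separate evidence. The mean normalized level of the 5 cartilage markers (*Acan*, *Col2a1*, *Comp*, *Mia1* and *Sox9*) was -0.58 in LGXSM-5 and -0.39 in LGXSM-35, against 0.56 in LGXSM-6 and 0.23 in LGXSM-33. That of the 3 bone markers (*Bglap1*, *Col1a1* and *Runx2*) was -0.27 and -0.45, against 0.35 and 0.02. The 2 growth plate markers (*Col10a1* and *Ihh*) stood at -0.84 and -0.42, against 0.26 and -0.22. The 3 fat markers (*Adipoq*, *Lep* and *Retn*), at 0.22, -0.14, -0.04 and 0.17, and the 3 leukocyte and marrow markers (*Ccl3*, *Il4* and *Mmp9*), at -0.14, 0.15, -0.09 and 0.00 in that order, did not follow the same order. No marker was at 0 in any assay replicate of the 4 lines, the lowest signal being 4. Whether background had been taken off is not given, so a signal above 0 does not show detection. The part of tissue share in the results was not tested.

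LGXSM-5 and LGXSM-35 were compared directly to ask where they part. No mRNA passed in limma (0% of the 67), although 18 had an unadjusted P under 0.05. Tukey's test, which adjusts over strain pairs within an mRNA and not over the 67 mRNAs, called 1. With runs as a random block 4 had an unadjusted P under 0.05, and 0 with run means. The smallest adjusted P was 0.119, and the 95% interval reached a median of 0.27 log2 to either side of the difference. The intervals of 63 of 67 mRNAs lay within a difference of 1 log2 either way when assay replicates were taken as independent. With the block the median reach was 0.42 log2 and 56 of 67 lay within it. LGXSM-5 was higher for 31 mRNAs and lower for 36. The largest difference was that of *Ccl3*, -0.999 (95% interval -1.70 to -0.30, and -1.94 to -0.06 with the block), followed by *Mmp3*, higher in LGXSM-5 by 0.88 (0.06 to 1.71, and -0.24 to 2.00 with the block). *Igf1* differed by less than its error (adjusted P = 0.962), and so did *Mmp9* (adjusted P = 0.675). The call of no mRNA depended on single runs of LGXSM-5: without its signals 1 to 3, 4 to 6 or 7 to 9, 1, 5 and 4 mRNAs passed, and without signals 7 to 9 of LGXSM-35 2 passed.

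**Figure D4:**
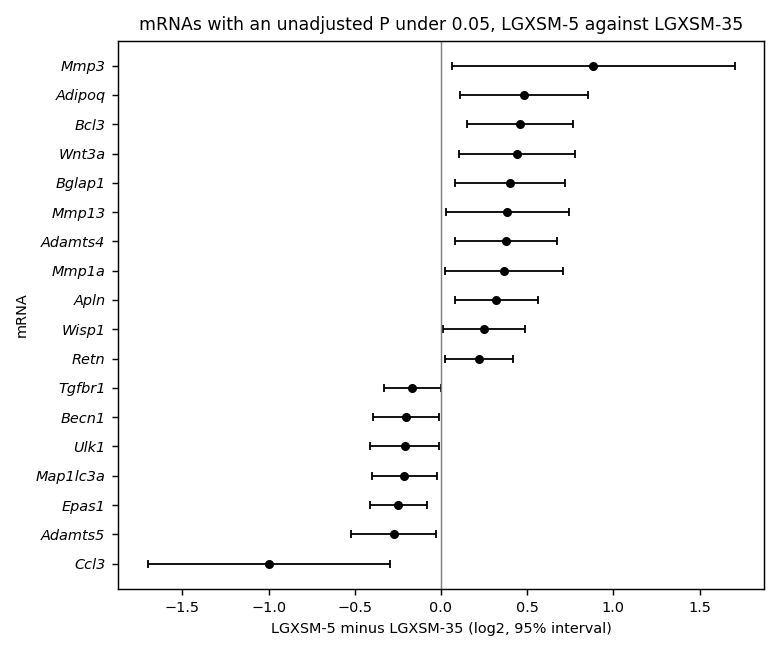
Difference between LGXSM-5 and LGXSM-35 (log2, horizontal axis) with its 95% interval for the 18 mRNAs with an unadjusted P under 0.05; none passed after adjustment. *Ccl3* and *Mmp3* have the widest intervals, and most of the others lie within 0.5 of 0.

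The healer and non-healer lines themselves differed for 14 mRNAs (20.9% of the 67), of which LGXSM-6 was higher for 9 and lower for 5. Without signals 4 to 6 of LGXSM-6 these counts were 5 and 4, and without signals 10 to 12 of LGXSM-33 they were 5 and 5. In the fit with runs as a random block LGXSM-6 was higher for 3 and lower for 3, and with run means 0 passed in limma, 8 having an unadjusted P under 0.05. Scaled to the mean of the reference genes 12 were higher and 22 lower in LGXSM-6, and without normalization 35 and 2. Of the 14, LGXSM-5 was below both lines for 8, between them for 4 and above both for 2, and LGXSM-35 was below both for 8, between for 3 and above both for 3. *Wisp1*, a matricellular target of Wnt signalling, was an mRNA on which LGXSM-5 did lie between, with means of 0.43 in LGXSM-6, -0.16 in LGXSM-5 and -0.24 in LGXSM-33, but LGXSM-35 was below both at -0.41. *Xrcc2*, a protein of recombination repair, was between in both, with 0.13 in LGXSM-6, 0.00 in LGXSM-5, 0.03 in LGXSM-35 and -0.18 in LGXSM-33. *Nampt*, an enzyme of NAD synthesis, was likewise between in both, with 0.13, 0.07, 0.00 and -0.04 in that order. For *Xrcc2* and *Nampt* neither intermediate line differed from either comparison line after adjustment.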

How the data were processed

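Signals of 67 target mRNAs were measured in knee joint lysates of 8 strains in a branched DNA bead assay. The authors deposited log10 signals and log10 residuals after multiple regression on reference genes. That regression was recomputed on the reference genes of each panel (3 in the first, 2 in the second). In the first it gave the deposited residuals to within 2.26e-05, the ninth assay replicate of LGXSM-35 aside. In the second it did not, and the largest departure of an assay replicate was 0.0108 to 0.0344. With all residuals recomputed, 12 mRNAs were shared on the lower side and 1 on the higher. Per the study's methods, background was taken off the averaged signals before normalization; whether the deposited log10 signals are from before or after that step is not given in the sources used here. Values were changed to log2. The ninth assay replicate of LGXSM-35 in the first panel was replaced by residuals recomputed from the deposited log10 signals. Deposited strain means and fold changes, which hold the study's own comparisons, were not used, and 0 columns were without a sample. Each panel was fitted apart with limma 3.58.1 in R 4.3.3 (lmFit, contrasts.fit, eBayes) with strain as the factor over all 8 strains, and P values were adjusted by Benjamini-Hochberg over the 67 mRNAs of a comparison; 0.05 was the threshold. The fit was tested on simulated data with independent assay replicates. The likeness within runs was left out, so that test does not bear on P values where runs are alike. Each strain is 1 sample with several assay replicates. The methods give 3 to 4 mice a strain, with both biological and technical replicates, but the files do not tie an assay replicate to a mouse, so P values over assay replicates mix both kinds of spread and treat them as independent.

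The lines, gene groups and tests were chosen with earlier results of these data known. mRNAs were named when shared by both intermediate lines (at most 12 a direction, by the smallest of the 4 differences), when particular to 1 line (at most 6; none met this), when the intermediate lines lay on opposite sides (none), or as up to 4 examples of each functional group by the size of the mean difference; *Cebpb*, *Nampt*, *Il4*, *Col6a6*, *Smad4*, *Sox5* and *Sox9* were named after their values were seen where a small count or marker list needed them. Alternatives were the values as filed, that assay replicate left out, other uses of the reference genes, the 4 lines alone, a signal filter of 20, Tukey's honestly significant difference, runs of 3 signals as a random block or as means, the signal number as a block, and each run left out. One mRNA is not reported by name here. Promoter sequences are RefSeq's (GRCm38.p6).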

Additional observations from a re-analysis of the deposited data

Results flagged for a closer look

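Among the 47 named mRNAs, each of the 2 intermediate lines was examined for an assay replicate far from the other 8, which makes 94 sets of 9. In 2 of the 94, 1 value was set apart by Dixon's criterion. Chance gives about 1 in 20 where values are independent, which these runs of 3 are not, so nothing is read from the number. For *Fzd2*, a Wnt receptor, the lowest normalized level in LGXSM-35 was -0.63, with the next at -0.21. For *Trp53*, the p53 tumour suppressor, the highest normalized level in LGXSM-35 was 0.19, with the next at -0.02. Both were the first assay replicate of the line, and *Fzd2* passed in no comparison.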

How the results depend on the processing

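The numbers of mRNAs that passed were 31 and 27 for LGXSM-5 against LGXSM-6 and LGXSM-33, 34 and 26 for LGXSM-35, 0 between the intermediate lines and 12 shared. Over 26 alternatives, 135 of 156 such counts stayed within 1.5 times, and 241 of the 312 shared calls of single mRNAs were kept, 71 lost and 0 reversed. With runs of 3 signals as a random block, 7 passed for LGXSM-5 against LGXSM-33, 15 and 9 for LGXSM-35 against LGXSM-6 and LGXSM-33, and 2 were shared. With run means, which leave fewer values, 11 and 5 passed for LGXSM-5, 11 and 3 for LGXSM-35, and 2 were shared. Without normalization 10 and 8 passed for LGXSM-5 and LGXSM-35 against LGXSM-33 and 3 were shared, and scaled to the mean of the reference genes 4 were shared; the cause was not tested. Tukey's test, which was not adjusted over mRNAs, called 1 between the intermediate lines and 7 shared. Leaving out 1 run at a time gave 29 to 35 and 18 to 29 for LGXSM-5, 25 to 41 and 17 to 33 for LGXSM-35, 0 to 5 between the intermediate lines and 8 to 17 shared. The signal number pairs nothing that the labels name; as a replicate block it gave 31, 26, 39, 31, 0 and 18 in the order above and moved no count by over 1.5 times. Low signals limit mRNAs such as *Gdf5*, *Ihh*, *Fgf18* and *Smad1*.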
